A study of Homo sapiens with 14 samples.

Results

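This account concerns what the loss of SRF binding did to gene expression when the MRTFB protein already lacked YAP binding. It set MRTFB dN Y305A/dPY against MRTFB dN dPY in MCF-10A cells, a human breast epithelial line that is immortal but does not form tumours. The 4 libraries of these groups, 2 per group, were chosen by their labels from the 14 libraries of the study. MRTFB dN Y305A/dPY is a form of MRTFB that binds neither G-actin, YAP nor SRF, and MRTFB dN dPY is the form that binds neither G-actin nor YAP but keeps SRF binding. Cells received each form by retroviral infection and were harvested on day 2. The other libraries carried MRTFB dN Y305A (no G-actin and no SRF binding), MRTFB dN (no G-actin binding), a YAP 5SA construct, or an empty Puro or Hygro vector. Both forms compared here therefore share the loss of G-actin and YAP binding and differ by the Y305A substitution.

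MRTFB, named MKL2 in the table, is a coactivator of the transcription factor SRF. G-actin holds MRTF proteins inactive in the cytoplasm, and when actin polymerises they enter the nucleus and act with SRF at CArG boxes, the DNA element that SRF binds. Known targets are genes of actin, myosin and adhesion proteins. YAP is the coactivator of the TEAD factors that the Hippo pathway restrains, and genes such as CTGF, CYR61 and ANKRD1 are known to respond to both coactivator families.

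The introduced RNA was present in all 4 libraries but not at the same level. MKL2 stood at 610 and 343 FPKM (a level scaled by transcript length and library size) in replicates 1 and 2 of MRTFB dN Y305A/dPY, against 286 and 171 FPKM in MRTFB dN dPY. The Puro vector had 6.6 and 3.66 FPKM and the Hygro vector 4.57 and 3.06 FPKM. Within each replicate number MKL2 was higher in MRTFB dN Y305A/dPY, by 1.04 ± 0.15 on the log2 scale (± is the standard error throughout, adjusted p = 0.0022 by limma, and 0.15 with no replicate block). Every result below was measured with this difference in MKL2 level present, and its part in them was not tested. Fragments of the native MKL2 gene and of the construct cannot be told apart in these values, and Y305A itself is not visible in a gene level.

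Absolute depth is unknown because only FPKM are given. Relative to MRTFB dN dPY replicate 2, depth was estimated at 1.04 and 1.44 in the MRTFB dN Y305A/dPY libraries and at 0.66 in MRTFB dN dPY replicate 1. That last library was empty from the gene after PPIA on chromosome 7 onward and on chromosomes 8, 9 and X, and its 5257 loci there were treated as missing. The share of the summed FPKM at named loci of short RNAs was 49.89% and 42.23% in MRTFB dN Y305A/dPY, against 54.67% and 33.12% in MRTFB dN dPY. Epithelial markers were present: EPCAM stood at 280 and 211 FPKM in MRTFB dN Y305A/dPY, against 186 and 125 FPKM in MRTFB dN dPY, and CDH1 at 341 and 227, against 317 and 274 FPKM. KRT8 and KRT18 were listed at 0 in MRTFB dN Y305A/dPY replicate 1 and at 9620 and 12200 FPKM in replicate 2. Both were also listed at 0 in MRTFB dN Y305A replicate 1, against 12600 and 16600 FPKM in its replicate 2. An isolated 0, meaning 0 in 1 compared library and 1 FPKM or more in the 3 others, occurred at 19 tested loci. It may be a failed estimate. In RNA from whole cultures, fewer cells of a type and less RNA per cell cannot be told apart.

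Of 11517 named loci with 1 FPKM or more in at least 2 of the 4 libraries, 4691 passed an adjusted p of 0.05, or 40.7%. Of these 2317 were higher in MRTFB dN Y305A/dPY (20.1% of the loci tested) and 2374 were lower (20.6%). The test was limma on log2(FPKM + 1) with the replicate number as a block. With no replicate block the counts were 1047 higher and 1429 lower, all of them among the loci called with the block. Nothing in the labels states that replicates are separate cultures, so p values measure the spread between these libraries. The median difference over all loci tested was 0.04 on the log2 scale. Large decreases outnumbered large increases: 542 loci were lower by 2 or more on the log2 scale, against 279 that were higher by as much, and 121 were lower by 4 or more, against 35 higher. Of the 2374 lower loci 2127 had a value in all 4 libraries, and each of these was lower in both replicate pairs. Likewise, 2111 of the 2317 higher loci had a value in all 4 libraries, and each was higher in both pairs. The calls rest on these same pairs, so this agreement follows in large part from the choice of loci and is not a replication.

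**Figure D1:**
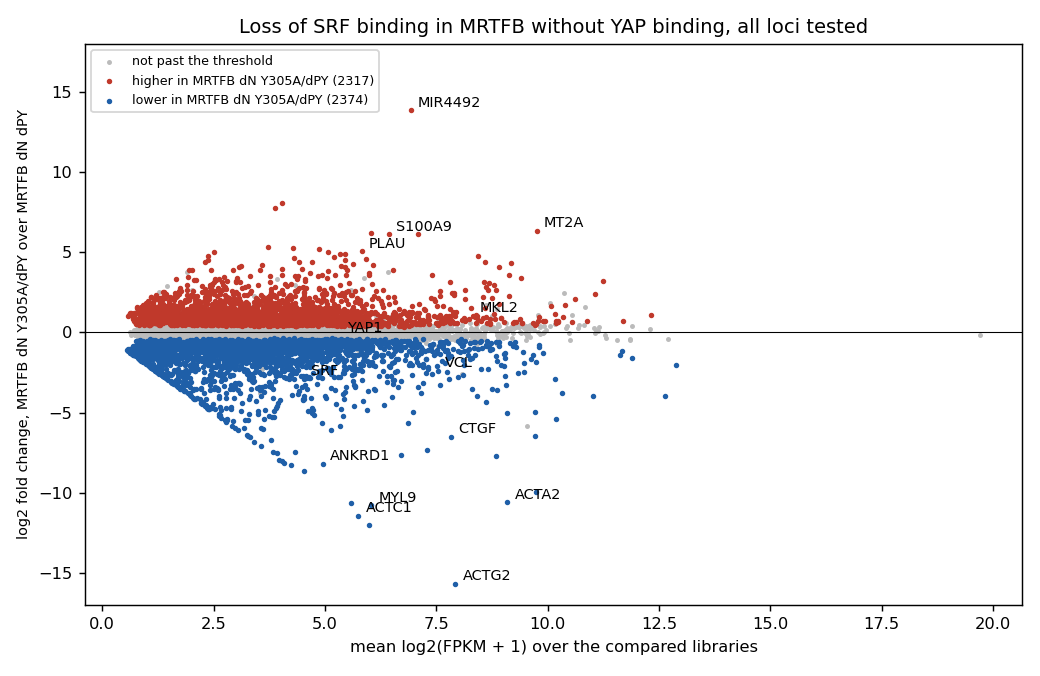
Each point is 1 named locus, with its mean log2(FPKM + 1) over the compared libraries on the x axis and the log2 fold change of MRTFB dN Y305A/dPY over MRTFB dN dPY on the y axis. Red points (2317) were higher and blue points (2374) lower in MRTFB dN Y305A/dPY at an adjusted p of 0.05, and the blue cloud reaches farther from 0 (ACTG2 at -15.70) than the red cloud does apart from MIR4492 at 13.86.

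The empty vectors show where the differing loci stood without an introduced MRTFB. They are used as a description, since the labels do not say which vector goes with the MRTFB forms. At the 247 lower and 206 higher loci missing in MRTFB dN dPY replicate 1, replicate 2 alone set the position of that group. Of the 2374 lower loci, 1363 (57.4%) had every MRTFB dN dPY value above all 4 vector libraries while MRTFB dN Y305A/dPY was not apart from them. That position was held by 17.0% of all loci tested. Of the 2317 higher loci, 801 (34.6%) had MRTFB dN dPY below all 4 vector libraries and MRTFB dN Y305A/dPY not apart, against 12.1% of all loci tested. In 508 higher loci (21.9%) MRTFB dN Y305A/dPY was above the vector libraries and MRTFB dN dPY was not apart, against 6.69% of all loci tested. The calls and the positions rest on the same MRTFB values, so shares above those of all loci follow in part from the choice of loci.

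The largest decreases were in genes of smooth and cardiac muscle contraction. ACTG2, the enteric smooth muscle actin, was listed at 0 and 0.114 FPKM in MRTFB dN Y305A/dPY, against 68500 and 46000 FPKM in MRTFB dN dPY. MYL7, an atrial myosin light chain, was listed at 0 in both MRTFB dN Y305A/dPY libraries and stood at 4400 and 3790 FPKM in MRTFB dN dPY. ACTC1, the cardiac muscle actin, stood at 0.0166 and 0.0123 FPKM in MRTFB dN Y305A/dPY, against 3030 and 2710 FPKM in MRTFB dN dPY. The groups of all 3 genes were far apart, with every MRTFB dN Y305A/dPY value at or below 0.114 FPKM. On the log2(FPKM + 1) scale the differences were -15.70 ± 0.24 for ACTG2, -12.00 ± 0.14 for MYL7 and -11.46 ± 0.13 for ACTC1, with adjusted p of 5.3e-07, 2.6e-07 and 2.6e-07 by limma. These scales hold a pseudocount of 1 FPKM, so no fold is given for genes listed at or near 0.

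Promoters are shown for the largest decreases whose promoter window holds a CArG box, because that box is the element through which SRF acts. The windows run from 250 bases before to 50 bases after the start of the gene, are from RefSeq on GRCh38.p14, and are printed 5′ to 3′ on the strand of the gene with the CArG boxes in capitals. The expression values were made on hg19 and were matched to these windows by gene symbol. The windows are chr2:73892758-73893057 on the plus strand for ACTG2, and on the minus strand chr7:44141283-44141582 for MYL7, chr15:34795500-34795799 for ACTC1, chr3:123620499-123620798 for MYLK and chr1:203186655-203186954 for CHI3L1.
ACTG2: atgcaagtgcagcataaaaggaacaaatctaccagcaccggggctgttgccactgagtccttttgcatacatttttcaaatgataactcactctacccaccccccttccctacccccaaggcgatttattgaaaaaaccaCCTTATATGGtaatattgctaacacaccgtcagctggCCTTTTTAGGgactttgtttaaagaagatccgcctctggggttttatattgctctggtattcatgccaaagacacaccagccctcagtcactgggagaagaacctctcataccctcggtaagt
MYL7: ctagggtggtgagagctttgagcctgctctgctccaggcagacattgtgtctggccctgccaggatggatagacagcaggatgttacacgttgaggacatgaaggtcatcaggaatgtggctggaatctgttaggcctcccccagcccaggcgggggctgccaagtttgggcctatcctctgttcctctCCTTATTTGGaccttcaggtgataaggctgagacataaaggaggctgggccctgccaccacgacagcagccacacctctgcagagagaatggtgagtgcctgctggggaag
ACTC1: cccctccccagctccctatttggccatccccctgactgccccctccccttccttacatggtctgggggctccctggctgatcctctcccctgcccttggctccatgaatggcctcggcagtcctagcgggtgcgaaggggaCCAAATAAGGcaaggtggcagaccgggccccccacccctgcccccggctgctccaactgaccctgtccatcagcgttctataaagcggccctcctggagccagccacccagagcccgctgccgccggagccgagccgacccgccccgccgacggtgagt
MYLK: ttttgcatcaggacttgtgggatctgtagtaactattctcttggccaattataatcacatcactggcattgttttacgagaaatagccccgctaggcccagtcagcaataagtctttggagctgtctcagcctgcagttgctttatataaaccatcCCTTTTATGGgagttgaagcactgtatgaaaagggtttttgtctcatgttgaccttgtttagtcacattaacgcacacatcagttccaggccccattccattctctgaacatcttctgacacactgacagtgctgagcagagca
CHI3L1: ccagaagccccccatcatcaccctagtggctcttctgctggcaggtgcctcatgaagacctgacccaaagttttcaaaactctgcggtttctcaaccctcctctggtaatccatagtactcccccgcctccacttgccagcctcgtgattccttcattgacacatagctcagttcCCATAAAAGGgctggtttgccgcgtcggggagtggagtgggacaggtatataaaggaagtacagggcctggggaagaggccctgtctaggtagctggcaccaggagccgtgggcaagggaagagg
The boxes began 110 and 73 bases before the start in ACTG2, 61 bases before it in MYL7, 109 in ACTC1, 94 in MYLK and 75 in CHI3L1. Of the 12 largest decreases 8 were matched to a window and 5 of these held a CArG box. Loci that join several genes or share their name with another locus, such as those of TAGLN and METAP1, were not looked up. A box was counted only as CC, a run of A or T letters alone, and GG. The windows of ACTA2, LMOD1 and ANKRD1 held no such exact match. That says nothing of boxes with another letter inside these windows, or of sites elsewhere.

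MYLK, myosin light chain kinase, stood at 0.325 and 0.0926 FPKM in MRTFB dN Y305A/dPY, against 2650 and 1380 FPKM in MRTFB dN dPY. MYL9, the regulatory light chain of smooth muscle myosin, stood at 0.672 and 0.478 FPKM in MRTFB dN Y305A/dPY, against 3220 and 2360 FPKM in MRTFB dN dPY. ACTA2, the vascular smooth muscle actin, stood at 9.24 and 17.7 FPKM in MRTFB dN Y305A/dPY, against 27900 and 16800 FPKM in MRTFB dN dPY. The vector libraries had 4.26 to 8.18 FPKM of ACTA2, so both groups were above the vector range, MRTFB dN Y305A/dPY by little and MRTFB dN dPY by far. The log2 differences were -10.63 ± 0.26 for MYLK, -10.78 ± 0.16 for MYL9 and -10.61 ± 0.42 for ACTA2 (adjusted p 3.2e-06, 5.3e-07 and 1.5e-05 by limma). A locus that joins PAFAH1B2, SIDT2 and TAGLN, the gene of the actin-binding protein transgelin, stood at 28.9 and 23 FPKM in MRTFB dN Y305A/dPY, against 35600 and 20500 FPKM in MRTFB dN dPY, a difference of -9.98 ± 0.18. The value of a joined locus cannot be assigned to 1 of its genes.

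**Figure D2:**
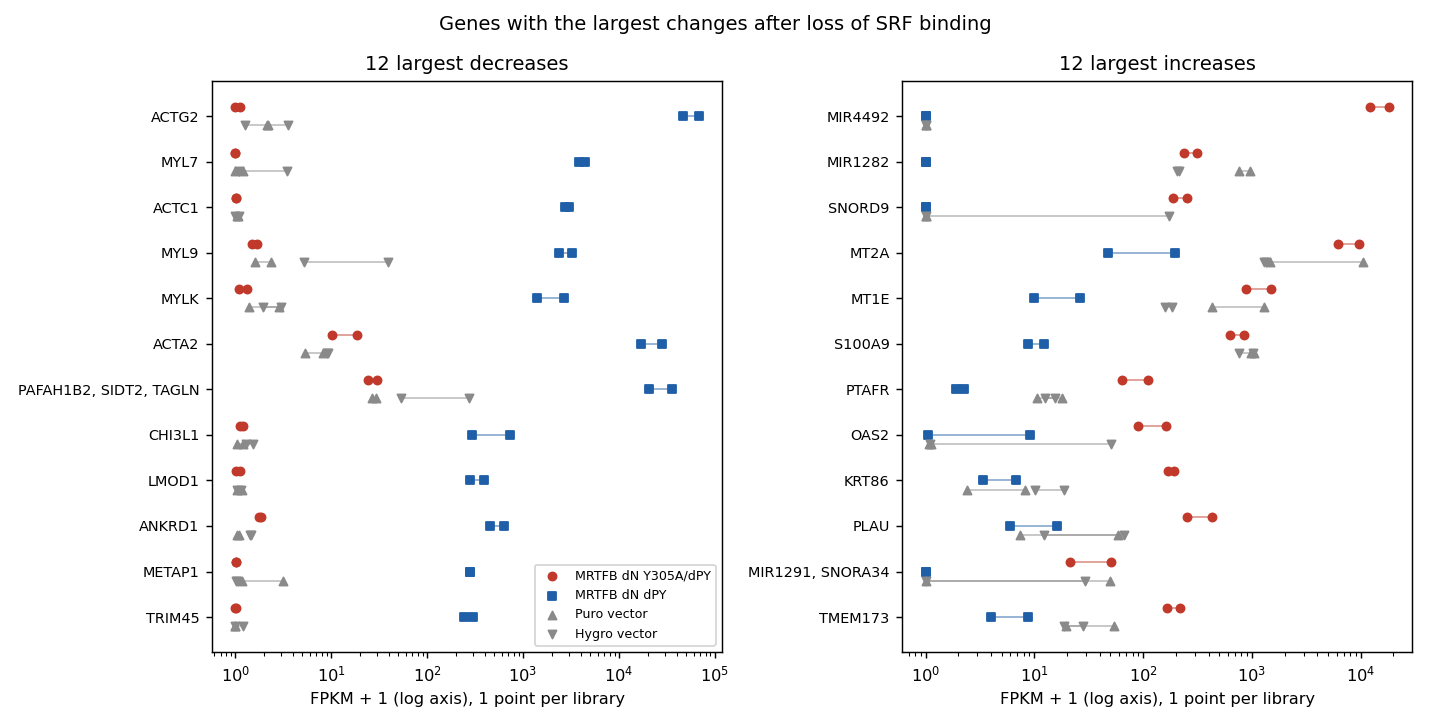
FPKM + 1 on a log axis, 1 point per library, for the 12 loci with the largest decreases (left) and the 12 with the largest increases (right) among loci with a value in all 4 compared libraries. Red circles are MRTFB dN Y305A/dPY, blue squares MRTFB dN dPY and grey triangles the empty vectors, and METAP1 is 1 of the loci with that name. On the left the blue squares lie far right of all other points (ACTG2 at 68500 and 46000 FPKM), and on the right the grey triangles of MT2A and S100A9 lie nearer to the red circles than to the blue squares.

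The rest of the 12 largest decreases, taken over loci with a value in all 4 libraries, were not all contractile genes. LMOD1, the actin nucleator leiomodin of smooth muscle, stood at 0.0154 and 0.125 FPKM in MRTFB dN Y305A/dPY, against 395 and 276 FPKM in MRTFB dN dPY. CHI3L1, a secreted chitinase-like glycoprotein, stood at 0.202 and 0.105 FPKM in MRTFB dN Y305A/dPY, against 724 and 292 FPKM in MRTFB dN dPY. TRIM45, of the tripartite motif family, stood at 0.0152 and 0 FPKM in MRTFB dN Y305A/dPY, against 297 and 240 FPKM in MRTFB dN dPY. None of the 3 exceeded 0.534 FPKM in any vector library. A locus named METAP1 stood at 0.0103 and 0.00384 FPKM in MRTFB dN Y305A/dPY, against 278 and 281 FPKM in MRTFB dN dPY, while another locus carries the same gene name.

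Over the whole list of contractile genes, 24 of 26 members tested were lower in MRTFB dN Y305A/dPY and 1 was higher, with a median difference of -3.06, where 20.6% of all loci were lower. With no replicate block 21 of them were lower. TPM1, the tropomyosin of stress fibres and muscle, stood at 37.9 and 24.5 FPKM in MRTFB dN Y305A/dPY, against 8030 and 5650 FPKM in MRTFB dN dPY (-7.74 ± 0.17). TPM4 stood at 189 and 92.7 FPKM in MRTFB dN Y305A/dPY, against 2170 and 1240 FPKM in MRTFB dN dPY (-3.62 ± 0.15). The member that did not pass was TPM3, another tropomyosin gene, at 281 and 137 FPKM in MRTFB dN Y305A/dPY, against 203 and 174 FPKM in MRTFB dN dPY, so its groups overlapped. TNNT1, a slow skeletal troponin, was the higher member at 15.5 and 6.66 FPKM in MRTFB dN Y305A/dPY, against 3.34 and 4.37 FPKM in MRTFB dN dPY (1.22 ± 0.35, adjusted p = 0.031 by limma). It was not called with no replicate block, without MRTFB dN Y305A/dPY replicate 1 or without MRTFB dN dPY replicate 1. TPM2, on the emptied chromosome 9, stood at 149 and 189 FPKM in MRTFB dN Y305A/dPY, against 5690 FPKM in the only MRTFB dN dPY library with a value. CNN1, the smooth muscle calponin, was listed at 0 in all 4 libraries and was not tested.

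SRF itself was lower. It stood at 8.34 and 6.74 FPKM in MRTFB dN Y305A/dPY, against 66.6 and 57.2 FPKM in MRTFB dN dPY, a 7.37-fold difference (-2.88 ± 0.13, adjusted p = 2.5e-05 by limma). Of 35 tested members of the MRTF/SRF target list, 25 were lower (71.4%, against 20.6% of all loci) and none was higher, with a median of -1.62. With no replicate block 20 of them were lower. ACTB, the cytoplasmic beta actin, stood at 5040 and 2850 FPKM in MRTFB dN Y305A/dPY, against 18100 and 12900 FPKM in MRTFB dN dPY (-2.01 ± 0.20). VCL, the focal adhesion protein vinculin, stood at 80.2 and 78.7 FPKM in MRTFB dN Y305A/dPY, against 423 and 433 FPKM in MRTFB dN dPY (-2.42 ± 0.14). NEXN, the F-actin-binding nexilin, was lower by more than these, at 0.206 and 0.496 FPKM in MRTFB dN Y305A/dPY, against 147 and 134 FPKM in MRTFB dN dPY. Members that did not pass included PFN1, profilin, at 253 FPKM in both MRTFB dN Y305A/dPY libraries, against 319 and 233 FPKM in MRTFB dN dPY.

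The immediate early list was drawn up for the genes that SRF serves with its other partners, the ternary complex factors. Whether each member answers to SRF in these cells was not tested. Of 23 members tested 8 were higher (34.8%, against 20.1% of all loci) and 5 lower (21.7%, near the 20.6% of all loci). Their median of 0.41 came to 0.21 without MRTFB dN Y305A/dPY replicate 2 and to 0.21 without MRTFB dN dPY replicate 2. FOS, the classical serum response gene, stood at 1.74 and 4.96 FPKM in MRTFB dN Y305A/dPY, against 2.52 and 2.93 FPKM in MRTFB dN dPY, and its groups overlapped (0.12 ± 0.27, adjusted p = 0.75 by limma). EGR1, a zinc finger transcription factor, stood at 6.32 and 14.5 FPKM in MRTFB dN Y305A/dPY, against 5.12 and 1.64 FPKM in MRTFB dN dPY. It did not pass with all libraries (1.41 ± 0.61, adjusted p = 0.11 by limma) and passed without MRTFB dN dPY replicate 1 (2.45, adjusted p = 0.014). DUSP6, a phosphatase that restrains ERK, stood at 14.2 and 15.3 FPKM in MRTFB dN Y305A/dPY, against 4.07 and 5.61 FPKM in MRTFB dN dPY (1.45 ± 0.15). DUSP5, another phosphatase of ERK, was lower at 5.44 and 5.42 FPKM in MRTFB dN Y305A/dPY, against 69.3 and 60.3 FPKM in MRTFB dN dPY (-3.35 ± 0.14). The 8 higher members came to 4 without MRTFB dN Y305A/dPY replicate 2 and to 4 without MRTFB dN dPY replicate 2. The 5 lower members came to 3 without MRTFB dN Y305A/dPY replicate 1, without its replicate 2 or without MRTFB dN dPY replicate 1, and to 2 with no replicate block.

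Genes listed as YAP/TEAD targets were also lower although neither form binds YAP. Of 39 tested members 23 were lower (59.0%, against 20.6% of all loci) and 3 were higher, with a median of -1.66. Without MRTFB dN dPY replicate 2 the counts were 19 and 1. ANKRD1, a stretch-responsive ankyrin repeat protein, stood at 0.759 and 0.836 FPKM in MRTFB dN Y305A/dPY, against 626 and 454 FPKM in MRTFB dN dPY (-8.22 ± 0.24, adjusted p = 5.8e-06 by limma). CTGF, a secreted matricellular protein, stood at 21.2 and 24.6 FPKM in MRTFB dN Y305A/dPY, against 2260 and 2080 FPKM in MRTFB dN dPY (-6.50 ± 0.15). CYR61, its relative, stood at 296 and 306 FPKM in MRTFB dN Y305A/dPY, against 1830 and 1490 FPKM in MRTFB dN dPY, a 5.46-fold difference (-2.45 ± 0.17). For CYR61 the MRTFB dN Y305A/dPY values were also above the Puro vector, which had 5.85 and 26.9 FPKM, and the Hygro vector, which had 16.4 and 35.1 FPKM.

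The decreases in this list were uneven. NPPB, the natriuretic peptide B precursor, was listed at 0 in both MRTFB dN Y305A/dPY libraries and stood at 404 and 149 FPKM in MRTFB dN dPY. ADAMTS1, a secreted protease, stood at 0.325 and 0.693 FPKM in MRTFB dN Y305A/dPY, against 102 and 93.5 FPKM in MRTFB dN dPY (-6.04 ± 0.15). AMOTL2, an angiomotin that binds YAP, stood at 37.4 and 29 FPKM in MRTFB dN Y305A/dPY, against 60.4 and 37.8 FPKM in MRTFB dN dPY. AMOTL2 was the weakest call named here (-0.52 ± 0.16, adjusted p = 0.036 by limma), and it did not pass with no replicate block (adjusted p = 0.34) or without any 1 of the 4 libraries (0.076 to 0.2). LATS2 and PTPN14 did not pass, at 0.09 ± 0.20 and -0.12 ± 0.15. WWC1, the Hippo pathway scaffold KIBRA, was higher at 38.7 and 31.9 FPKM in MRTFB dN Y305A/dPY, against 15.7 and 13.3 FPKM in MRTFB dN dPY (1.23 ± 0.12).

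The factors of the YAP and TEAD family were looked at as well. YAP1 stood at 50.9 and 26.7 FPKM in MRTFB dN Y305A/dPY, against 41.9 and 44 FPKM in MRTFB dN dPY, with overlapping groups and an adjusted p of 0.6 by limma. WWTR1, the gene of TAZ, did not pass either, at 9.86 and 6.69 FPKM in MRTFB dN Y305A/dPY, against 11.4 and 13.2 FPKM in MRTFB dN dPY. TEAD1 was lower at 13.9 and 8.84 FPKM in MRTFB dN Y305A/dPY, against 27.5 and 24.9 FPKM in MRTFB dN dPY (-1.17 ± 0.21, adjusted p = 0.0061 by limma). TEAD2 and TEAD4 passed at -0.61 ± 0.13 and -0.53 ± 0.14, and both calls were lost with no replicate block (adjusted p 0.06 and 0.23), without MRTFB dN Y305A/dPY replicate 2 (0.077 and 0.17) and without MRTFB dN dPY replicate 2 (0.062 and 0.14). TEAD4 was also lost without MRTFB dN Y305A/dPY replicate 1 (0.05). TEAD3 did not pass, at 0.07 ± 0.14. Over the Hippo list of 20 tested genes 3 were higher and 5 lower, shares near the 20.1% and 20.6% of all loci. The counts were 1 and 2 with no replicate block, and 1 to 2 and 2 to 4 without any 1 library. MKL1, the gene of the relative MRTFA, stood at 15.3 and 17.9 FPKM in MRTFB dN Y305A/dPY, against 12.3 and 12.4 FPKM in MRTFB dN dPY, and did not pass (adjusted p = 0.065).

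Motifs were counted in the RefSeq windows of the 7917 tested loci that were matched to one, both strands searched. Loci that join several genes or share their name with another locus were not matched. For the CArG box only the exact form described above was counted, so boxes with another letter are left out of every share. A CArG box was present in 2.96% of 1624 windows of lower loci, in 8.6% of 349 windows of loci lower by 2 or more on the log2 scale, and in 15.4% of 65 windows of loci lower by 4 or more. It was present in 0.322% of 1552 windows of higher loci and in 0.886% of 4741 windows of loci that did not pass. Over all tested loci with a window the share was 1.2%, and over all 27305 windows of the RefSeq table it was 1.29%. The TEAD motif GGAATG, searched on both strands, was present in 11.6% of the windows of lower loci, in 49 of the 349 and in 21.5% of the 65. It was present in 10.3% of the windows of higher loci and in 10.4% of those of loci that did not pass, against 3836 of all 27305 windows. No overlap with a CArG box was needed or barred. A motif match describes the letters of a window, and no binding was measured.

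**Figure D3:**
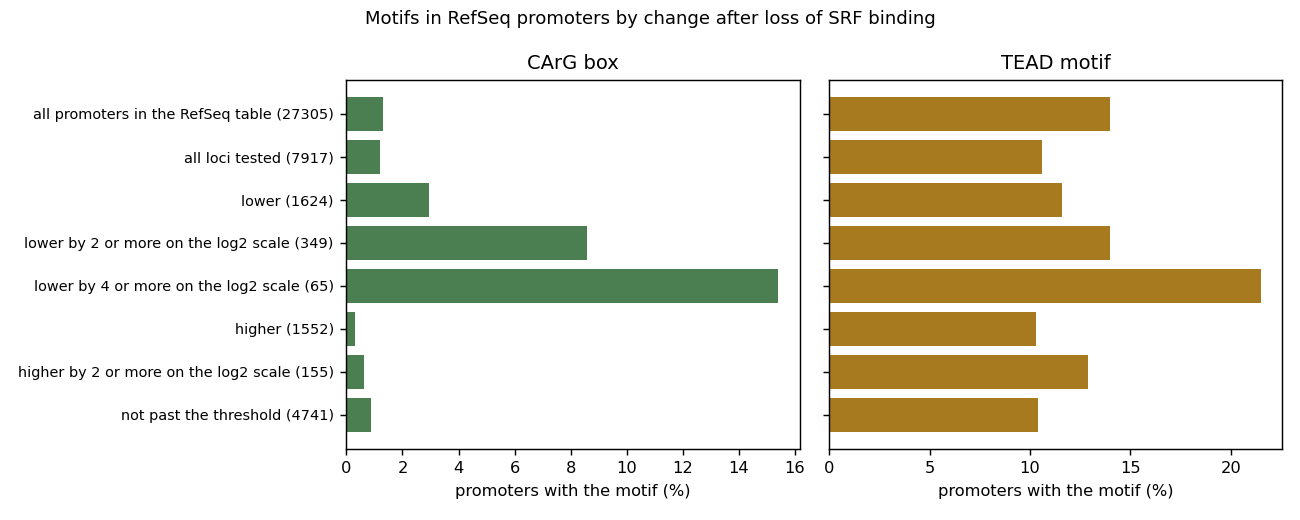
Share of RefSeq promoter windows that hold a CArG box (left) or the TEAD motif (right), in percent, by the change of the locus in MRTFB dN Y305A/dPY against MRTFB dN dPY, with the number of windows in brackets. The CArG bars lengthen to 15.4% at loci lower by 4 or more on the log2 scale, against 0.322% at higher loci, and each TEAD bar lies between 10.3% and 21.5%.

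Genes of actin turnover, adhesion and matrix were lower in large part. Of 39 tested actin dynamics genes 23 were lower (59.0%, against 20.6% of all loci) and 2 higher, with a median of -0.81, and 13 were lower with no replicate block. The 2 higher members lie on the emptied part of MRTFB dN dPY replicate 1 and have no value without replicate 2. CFL2, the muscle cofilin that severs actin filaments, stood at 6.27 and 3.87 FPKM in MRTFB dN Y305A/dPY, against 91 and 61.9 FPKM in MRTFB dN dPY (-3.68 ± 0.17). VIL1, the villin of microvilli, was listed at 0 in both MRTFB dN Y305A/dPY libraries and stood at 35 and 17.4 FPKM in MRTFB dN dPY. The Arp2/3 subunit gene ARPC1B was higher at 164 and 99.3 FPKM in MRTFB dN Y305A/dPY, against 22.2 FPKM in the MRTFB dN dPY library with a value, and other subunits such as ARPC2 and ARPC3 did not pass (-0.48 ± 0.17 and 0.39 ± 0.16).

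The integrin and focal adhesion list held changes in both directions, with 19 of 31 tested members lower (61.3%, against 20.6% of all loci) and 7 higher (22.6%, near the 20.1% of all loci), and a median of -1.47. ITGA1, the alpha 1 integrin, shares its locus with PELO and stood at 20.4 and 22.9 FPKM in MRTFB dN Y305A/dPY, against 736 and 667 FPKM in MRTFB dN dPY (-4.96 ± 0.13). A locus that joins ITGA5, the fibronectin receptor subunit, and ZNF385A stood at 151 and 210 FPKM in MRTFB dN Y305A/dPY, against 8100 and 7050 FPKM in MRTFB dN dPY (-5.40 ± 0.21). ITGB4, the hemidesmosome integrin, was higher at 363 and 602 FPKM in MRTFB dN Y305A/dPY, against 69.6 and 87.9 FPKM in MRTFB dN dPY (2.56 ± 0.15). The locus of ITGA3, a laminin receptor subunit, and PDK2 was higher as well, at 1090 and 1310 FPKM in MRTFB dN Y305A/dPY, against 175 and 112 FPKM in MRTFB dN dPY (3.09 ± 0.22). The partner of ITGB4 in hemidesmosomes, ITGA6, was lower at 97.8 and 52.1 FPKM in MRTFB dN Y305A/dPY, against 444 and 270 FPKM in MRTFB dN dPY (-2.26 ± 0.18).

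Of 25 tested extracellular matrix genes 18 were lower (72.0%, against 20.6% of all loci) and 1 higher, with a median of -1.67. With no replicate block 14 of them were lower. FN1, fibronectin, stood at 9.64 and 24.8 FPKM in MRTFB dN Y305A/dPY, against 543 and 1250 FPKM in MRTFB dN dPY (-5.63 ± 0.32, adjusted p = 5.9e-05 by limma). The locus of COL8A1, a short-chain collagen, and MIR548G stood at 6.65 and 18.3 FPKM in MRTFB dN Y305A/dPY, against 1980 and 2040 FPKM in MRTFB dN dPY (-7.37 ± 0.37). The basement membrane collagen COL4A1 stood at 11.8 and 20.9 FPKM in MRTFB dN Y305A/dPY, against 309 and 486 FPKM in MRTFB dN dPY (-4.54 ± 0.19). LAMA3 and LAMB3, laminin subunit genes of epithelial basement membrane, did not pass: LAMA3 differed by -0.21 ± 0.19 and the LAMB3 locus by -0.02 ± 0.17. The higher member was LTBP2, a latent TGF-beta binding protein, at 13.4 and 16.7 FPKM in MRTFB dN Y305A/dPY, against 3.97 and 6.64 FPKM in MRTFB dN dPY (1.37 ± 0.14).

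**Figure D4:**
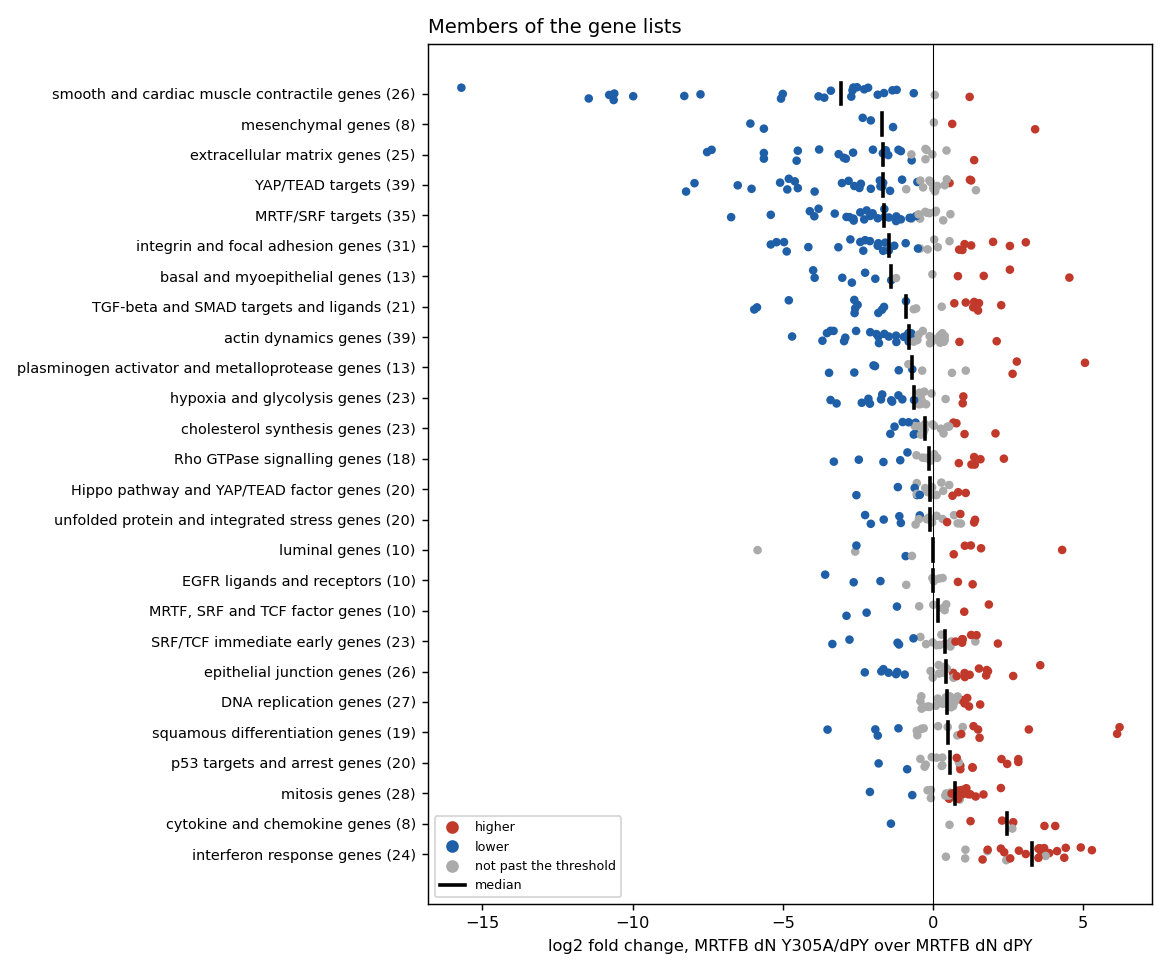
Log2 fold change of MRTFB dN Y305A/dPY over MRTFB dN dPY (x axis) for each tested member of the gene lists with 8 or more tested members, 1 point per locus, with the number tested in brackets and a black bar at the median. Red points were higher, blue points lower and grey points not past an adjusted p of 0.05. Medians run from -3.06 for contractile genes to 3.30 for interferon response genes.

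Ligands of the TGF-beta family were among the strongest decreases of the signalling lists. INHBA, the activin A subunit, stood at 0.0873 and 0.217 FPKM in MRTFB dN Y305A/dPY, against 63.5 and 77.7 FPKM in MRTFB dN dPY (-5.95 ± 0.13). BMP2 stood at 4.42 and 4.27 FPKM in MRTFB dN Y305A/dPY, against 398 and 239 FPKM in MRTFB dN dPY (-5.86 ± 0.18). The TGFB2 locus stood at 0.0816 and 0.129 FPKM in MRTFB dN Y305A/dPY, against 34.2 and 25.9 FPKM in MRTFB dN dPY (-4.80 ± 0.16). TGFB1 did not pass and its groups overlapped, at 13.9 and 32 FPKM in MRTFB dN Y305A/dPY, against 17 and 17.3 FPKM in MRTFB dN dPY. Over the list of 21 tested genes 11 were lower (52.4%, against 20.6% of all loci) and 7 higher (33.3%, against 20.1%), and the higher ones included SMAD3, which carries the signal (2.83-fold), and the TGFBR2 locus (1.34 ± 0.17), its type II receptor. EGF, a ligand of the EGFR, was lower at 0.231 and 0.149 FPKM in MRTFB dN Y305A/dPY, against 13.6 and 13.1 FPKM in MRTFB dN dPY (-3.59 ± 0.14).

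Members of the plasminogen system and of the metalloprotease inhibitors moved in both directions. PLAU, the urokinase that activates plasminogen, was higher at 250 and 425 FPKM in MRTFB dN Y305A/dPY, against 5.01 and 15 FPKM in MRTFB dN dPY, a 33.4-fold difference (5.06 ± 0.19, adjusted p = 1.4e-05 by limma). PLAUR, its receptor, was higher at 228 and 169 FPKM in MRTFB dN Y305A/dPY, against 36.2 and 25.4 FPKM in MRTFB dN dPY (2.65 ± 0.24). TIMP3, an inhibitor of metalloproteases, was lower at 7.94 and 11.7 FPKM in MRTFB dN Y305A/dPY, against 115 and 119 FPKM in MRTFB dN dPY (-3.46 ± 0.28).

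Of 8 tested mesenchymal genes 5 were lower (62.5%, against 20.6% of all loci) and 2 were higher, with a median of -1.70. VIM, the mesenchymal intermediate filament vimentin, stood at 7.11 and 1.24 FPKM in MRTFB dN Y305A/dPY, against 228 and 361 FPKM in MRTFB dN dPY (-6.08 ± 0.56, adjusted p = 0.00036 by limma). CDH2, N-cadherin, was lower by less, at 9.55 and 7.64 FPKM in MRTFB dN Y305A/dPY, against 23.1 and 22.9 FPKM in MRTFB dN dPY (-1.33 ± 0.13). A locus of the same list that joins S100A2, S100A3 and S100A4 was higher at 2800 and 1740 FPKM in MRTFB dN Y305A/dPY, against 178 and 244 FPKM in MRTFB dN dPY (3.40 ± 0.26). CDH1, E-cadherin, did not pass (-0.08 ± 0.19). Of 26 tested epithelial junction genes 11 were higher (42.3%, against 20.1% of all loci) and 7 lower (26.9%, against 20.6%), with a median of 0.43, and 6 and 4 with no replicate block. The higher ones included tight junction and gap junction genes. CLDN7, a claudin, stood at 1340 and 1000 FPKM in MRTFB dN Y305A/dPY, against 258 and 126 FPKM in MRTFB dN dPY (2.67 ± 0.18). OCLN, occludin, stood at 15.2 and 10.9 FPKM in MRTFB dN Y305A/dPY, against 2.59 and 3.51 FPKM in MRTFB dN dPY (1.79 ± 0.31). Among the lower ones were the desmosome genes DSP (-1.65 ± 0.15), DSC2 (-2.27 ± 0.28), DSC3 (-1.48 ± 0.15), DSG3 (-1.23 ± 0.22) and PKP2 (-1.72 ± 0.14), while the desmosome genes PKP3 (1.22 ± 0.14) and JUP (1.05 ± 0.16) were higher. With no replicate block DSG3, PKP3 and JUP were not called (adjusted p 0.067, 0.089 and 0.2 by limma).

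Keratinocyte genes also split. KRT17, a keratin of basal and stressed epithelium, was lower at 3500 and 735 FPKM in MRTFB dN Y305A/dPY, against 36900 and 17600 FPKM in MRTFB dN dPY (-3.99 ± 0.47). The locus of KRT15, a basal keratin, and MIR6510 was higher at 475 and 93.2 FPKM in MRTFB dN Y305A/dPY, against 20.3 and 2.91 FPKM in MRTFB dN dPY (4.54 ± 0.13). The KRT15 call was lost with no replicate block (adjusted p = 0.052). KRT5, the basal type II keratin, was higher at 2980 and 1970 FPKM in MRTFB dN Y305A/dPY, against 748 FPKM in both MRTFB dN dPY libraries (1.69 ± 0.23). ELF3, an epithelial transcription factor, was higher at 279 and 174 FPKM in MRTFB dN Y305A/dPY, against 13.3 and 7.88 FPKM in MRTFB dN dPY, a 19.7-fold difference (4.30 ± 0.20). S100A9, a subunit of calprotectin, was higher at 628 and 841 FPKM in MRTFB dN Y305A/dPY, against 11.3 and 7.76 FPKM in MRTFB dN dPY (6.13 ± 0.36). The vector libraries had 753 to 1050 FPKM of S100A9, so it was the MRTFB dN dPY libraries that stood apart from them. TP63, the basal lineage factor p63, was low in both groups and lower in MRTFB dN Y305A/dPY, at 0.687 and 1.22 FPKM, against 4.39 and 3.78 FPKM in MRTFB dN dPY (-1.39 ± 0.21).

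Among the other large increases, MT2A, a metal-binding metallothionein, stood at 6170 and 9720 FPKM in MRTFB dN Y305A/dPY, against 46.2 and 196 FPKM in MRTFB dN dPY, an 80.2-fold difference (6.33 ± 0.32, adjusted p = 3.6e-05 by limma). MT1E, of the same family, stood at 881 and 1490 FPKM in MRTFB dN Y305A/dPY, against 8.99 and 25.4 FPKM in MRTFB dN dPY (6.14 ± 0.32). All vector libraries had 1280 FPKM or more of MT2A and 158 FPKM or more of MT1E, above both MRTFB dN dPY libraries. TMEM173, the gene of the DNA sensing adaptor STING, stood at 219 and 165 FPKM in MRTFB dN Y305A/dPY, against 7.75 and 2.96 FPKM in MRTFB dN dPY (5.02 ± 0.23). PTAFR, the receptor of platelet-activating factor, stood at 109 and 62.6 FPKM in MRTFB dN Y305A/dPY, against 1.27 and 0.888 FPKM in MRTFB dN dPY (5.33 ± 0.19). KRT86, a hair keratin, stood at 167 and 190 FPKM in MRTFB dN Y305A/dPY, against 2.37 and 5.73 FPKM in MRTFB dN dPY (5.23 ± 0.51). LCN2, the secreted lipocalin 2, lies on the emptied part of MRTFB dN dPY replicate 1 and was higher by 6.21 ± 0.88, at 96.1 and 550 FPKM in MRTFB dN Y305A/dPY, against 4.27 FPKM in the MRTFB dN dPY library with a value. Unlike MT2A and S100A9, PTAFR, KRT86 and TMEM173 were higher in both MRTFB dN Y305A/dPY libraries than in any vector library, whose highest values were 16.8, 17.8 and 52.8 FPKM.

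Of the 12 largest increases at loci with a value in all 4 libraries, 4 were loci of short RNAs, whose FPKM can rest on few fragments. MIR4492 stood at 12100 and 18300 FPKM in MRTFB dN Y305A/dPY and was listed at 0 in MRTFB dN dPY and in the vector libraries. SNORD9 stood at 250 and 189 FPKM in MRTFB dN Y305A/dPY and was listed at 0 in MRTFB dN dPY. MIR1282 stood at 313 and 236 FPKM in MRTFB dN Y305A/dPY and was listed at 0 in MRTFB dN dPY, but had 206 to 965 FPKM in the vector libraries. The MIR1282 call (adjusted p = 0.035 by limma) was lost with no replicate block (0.12), without MRTFB dN Y305A/dPY replicate 1 (0.19) and without MRTFB dN dPY replicate 2 (0.19). The locus of MIR1291 and SNORA34 stood at 20.1 and 49.3 FPKM in MRTFB dN Y305A/dPY and was listed at 0 in MRTFB dN dPY, and its call was lost with no replicate block (adjusted p = 0.06 by limma) and without MRTFB dN Y305A/dPY replicate 1 (0.053). Poly(A)-selected libraries do not measure mature microRNAs.

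Interferon response genes were the list with the highest median, 3.30, with 18 of 24 tested members higher (75.0%, against 20.1% of all loci) and none lower. The median was 2.13 without MRTFB dN Y305A/dPY replicate 2 and 1.88 without MRTFB dN dPY replicate 2. MX2, an antiviral GTPase, stood at 41.5 and 30.2 FPKM in MRTFB dN Y305A/dPY, against 3.2 and 0.0222 FPKM in MRTFB dN dPY (4.13 ± 0.56, adjusted p = 0.0018 by limma). OAS2, a sensor of double-stranded RNA, stood at 163 and 88.7 FPKM in MRTFB dN Y305A/dPY, against 8.13 and 0.058 FPKM in MRTFB dN dPY (5.29 ± 0.56). In both genes MRTFB dN dPY replicate 1 was far above replicate 2. ISG15, a ubiquitin-like modifier, did not pass, at 2260 and 1770 FPKM in MRTFB dN Y305A/dPY, against 2250 and 142 FPKM in MRTFB dN dPY. The FPKM of the list summed to 10900 and 8690 in MRTFB dN Y305A/dPY and to 11900 and 598 in MRTFB dN dPY, and among the vectors to 7650 in Hygro vector replicate 1, against 86 to 200 in the other 3 vector libraries. Within the first pair the summed level was no higher in MRTFB dN Y305A/dPY, and the groups overlapped. The count of higher members was 8 with no replicate block, 11 without MRTFB dN Y305A/dPY replicate 2 and 22 without MRTFB dN dPY replicate 1. IRF1, a transcription factor of this response, was the member with the most even replicates, at 35.3 and 42.1 FPKM in MRTFB dN Y305A/dPY, against 4.43 and 4.47 FPKM in MRTFB dN dPY (2.86 ± 0.17).

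Of 8 tested cytokine and chemokine genes 5 were higher (62.5%, against 20.1% of all loci) and 1 lower, with 3 higher without MRTFB dN Y305A/dPY replicate 2 or with no replicate block. LIF, a cytokine of the interleukin 6 family, stood at 63.5 and 130 FPKM in MRTFB dN Y305A/dPY, against 4.21 and 8.53 FPKM in MRTFB dN dPY (3.71 ± 0.25, adjusted p = 0.00011 by limma). IL1RN, the antagonist of the interleukin 1 receptor, stood at 60.8 and 18.3 FPKM in MRTFB dN Y305A/dPY, against 1.89 and 0.466 FPKM in MRTFB dN dPY (4.07 ± 0.28). IL1A was the lower member at 2.71 and 4.94 FPKM in MRTFB dN Y305A/dPY, against 10.5 and 12.3 FPKM in MRTFB dN dPY, a call lost without either MRTFB dN Y305A/dPY library, without MRTFB dN dPY replicate 1 and with no replicate block (adjusted p 0.057 to 0.1).

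Cell cycle genes depended on the libraries used. Of 28 mitosis genes 18 were higher (64.3%, against 20.1% of all loci) and 2 lower, with a median of 0.72 (0.48 without MRTFB dN dPY replicate 1). The 18 came to 3 with no replicate block, to 4 without MRTFB dN dPY replicate 1, to 5 without MRTFB dN Y305A/dPY replicate 1 and to 11 without its replicate 2. MKI67, the proliferation antigen, stood at 1.88 and 4.22 FPKM in MRTFB dN Y305A/dPY, against 0.505 and 2.03 FPKM in MRTFB dN dPY, so that the groups overlapped while each pair was higher in MRTFB dN Y305A/dPY (0.86 ± 0.27). The MKI67 call was lost without any 1 of the 4 libraries and with no replicate block (adjusted p 0.068 to 0.25 by limma). ANLN, the actin-binding protein anillin of the cleavage furrow, was lower at 6.61 and 8.67 FPKM in MRTFB dN Y305A/dPY, against 38.1 and 33.7 FPKM in MRTFB dN dPY (-2.10 ± 0.23). Of 27 DNA replication genes 5 were higher, or 18.5%, near the 20.1% of all loci, and none was lower. That count was 0 without MRTFB dN dPY replicate 1 and 1 without either MRTFB dN Y305A/dPY library.

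Of 20 p53 targets and arrest genes tested 9 were higher (45.0%, against 20.1% of all loci) and 2 lower, with a median of 0.55 (0.96 without MRTFB dN dPY replicate 2). CDKN1A, the cell cycle inhibitor p21, was lower at 285 and 216 FPKM in MRTFB dN Y305A/dPY, against 1150 and 665 FPKM in MRTFB dN dPY (-1.81 ± 0.18). SFN, the 14-3-3 sigma protein, was higher at 1530 and 716 FPKM in MRTFB dN Y305A/dPY, against 180 and 118 FPKM in MRTFB dN dPY (2.84 ± 0.20). Of 23 hypoxia and glycolysis genes 12 were lower (52.2%, against 20.6% of all loci) and 2 higher, with a median of -0.63, and 8 and 0 (median -1.02) with no replicate block. Without MRTFB dN Y305A/dPY replicate 2 or MRTFB dN dPY replicate 2 the higher count was 1. BNIP3, a mitophagy receptor, was lower at 16.9 and 9.43 FPKM in MRTFB dN Y305A/dPY, against 256 and 80.6 FPKM in MRTFB dN dPY (-3.41 ± 0.22). VEGFA, the angiogenic factor, was higher at 42.5 and 90.8 FPKM in MRTFB dN Y305A/dPY, against 29.8 and 31 FPKM in MRTFB dN dPY (1.01 ± 0.24), a call lost with no replicate block and without replicate 2 of either group (adjusted p 0.085 to 0.13 by limma). Among 23 cholesterol synthesis genes 4 were higher (17.4%, near the 20.1% of all loci) and 7 lower (30.4%, against 20.6%). The counts were 1 and 1 with no replicate block, and 1 to 3 and 2 to 4 without any 1 library.

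Markers of other cell types were sparse. Of 10 leukocyte markers 3 were tested and all were higher in MRTFB dN Y305A/dPY, where 20.1% of all loci were higher. They were CD14 at 33 and 123 FPKM, against 2.61 and 3.73 FPKM in MRTFB dN dPY, CSF1R, and a locus that joins CD68 with other genes. The vector libraries had 9.17 to 139 FPKM of CD14 and 409 to 793 FPKM of the CD68 locus. For both, MRTFB dN Y305A/dPY lay within the vector range and MRTFB dN dPY below it. For CSF1R the vector libraries had 2.2 to 29.9 FPKM. The CSF1R groups overlapped, and its call and that of the CD68 locus were lost with no replicate block (adjusted p 0.34 and 0.052 by limma). PTPRC, CD3E and MS4A1 did not reach 1 FPKM in 2 of the 4 libraries. The endothelial list had 1 tested member of 8, the fibroblast list 2 of 9, the neural list 3 of 8 and the renal packaging line list 1 of 7. The endothelial member, CDH5, was higher at 14.6 and 4.51 FPKM in MRTFB dN Y305A/dPY, against 0.631 and 1.21 FPKM in MRTFB dN dPY. The vector libraries had 0 to 0.0615 FPKM of CDH5. FAP of the fibroblast list was higher with overlapping groups, and NCAM1 of the neural list was lower. Both of these calls were lost with no replicate block (adjusted p 0.22 and 0.058 by limma). The renal member, CDH16, stood at 0.118 and 0.228 FPKM in MRTFB dN Y305A/dPY, against 32.8 and 19.8 FPKM in MRTFB dN dPY. The vector libraries had 0.857 to 8.3 FPKM of CDH16. No adipocyte marker was tested. The part of other cell types in the results was not tested.

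The same substitution was also measured with YAP binding kept, in MRTFB dN Y305A against MRTFB dN, which shares no library with the comparison above. The difference between the effects passed an adjusted p of 0.05 at 3 of the 11517 loci (0.026%) by limma, and 885 (7.68%) had an unadjusted p under 0.05. A difference that did not pass is not shown to be 0. JAKMIP1, a microtubule-binding protein, was among the 3: it stood at 0.0789 and 0 FPKM in MRTFB dN Y305A/dPY, against 11.2 and 10.8 FPKM in MRTFB dN dPY, and was listed at 0 in MRTFB dN Y305A, against 1.03 and 1.21 FPKM in MRTFB dN. The other 2 were MIR4492 and SNORD9.

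CTGF had the effect nearest to the threshold among the listed genes. It stood at 21.2 and 24.6 FPKM in MRTFB dN Y305A/dPY, against 2260 and 2080 FPKM in MRTFB dN dPY, and at 213 and 184 FPKM in MRTFB dN Y305A, against 4710 and 4470 FPKM in MRTFB dN. The effect of losing SRF binding on CTGF was -6.50 without YAP binding and -4.53 with it, a difference of -1.97 ± 0.21 (adjusted p = 0.094 by limma). For CYR61 the effects were -2.45 and -1.75, a difference of -0.70 ± 0.25 (adjusted p = 0.58 by limma), and for ANKRD1 they were -8.22 and -8.06, a difference of -0.16 ± 0.34 (adjusted p = 0.96). For ACTA2 and SRF the differences were 0.75 ± 0.59 and -0.15 ± 0.18 (adjusted p 0.84 and 0.91 by limma). The list medians without and with YAP binding were -3.06 and -3.32 for contractile genes, -1.62 and -1.38 for MRTF/SRF targets, and -1.66 and -0.97 for YAP/TEAD targets, with no member of these lists past the threshold for the difference.

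**Figure D5:**
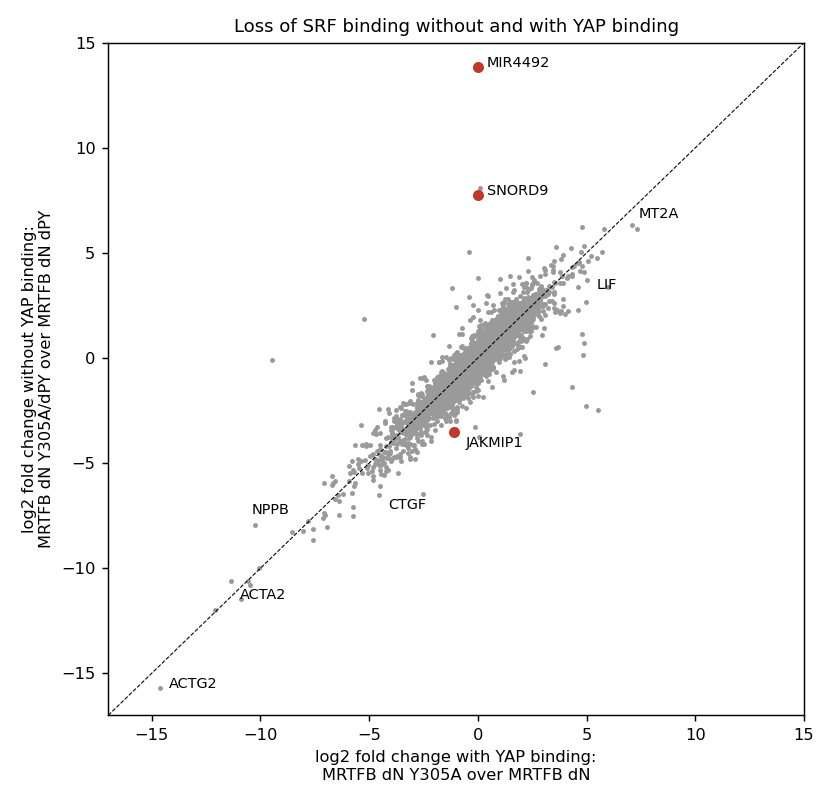
Log2 fold change of MRTFB dN Y305A over MRTFB dN (x axis, YAP binding kept) and of MRTFB dN Y305A/dPY over MRTFB dN dPY (y axis, YAP binding lost), 1 point per tested locus, with the dashed line where both are equal. The 3 red points, MIR4492, SNORD9 and JAKMIP1, are the loci whose effects differed at an adjusted p of 0.05, and CTGF lies below the line at -6.50 against -4.53.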

How the data were processed

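Poly(A)-selected, strand-specific libraries were sequenced as paired reads. The authors deposited FPKM for 34071 loci, for which the submitters' processing notes name Cuffnorm, Cufflinks, TopHat and Bowtie, with hg19 as the build. Tool versions, annotation and library scaling are not given in the sources used here, and the table holds no counts and no positions, so no counting interval can be given. Of 27543 named loci, 1204 join several genes and 3733 share their whole name with another locus. Of the genes named, FAP, INHBA, METAP1, TEAD4 and TGFBR2 are among the latter, and 1 locus is given. The symbols ITGA5, MYLK and TRIM45 also occur at another locus, whose whole name is not the same, and 1 locus is given for each. Each column of values was matched to a sample by name (0 unused).

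A log2(FPKM + 1) scale was used for the 11517 named loci that reached 1 FPKM in 2 or more of the 4 compared libraries, and limma 3.58.1 in R 4.3.3 was fitted (two-sided, empirical Bayes with an intensity trend), with the 8 libraries of the 4 MRTFB groups in 1 fit and replicate number as a block. Residual degrees of freedom were 3, or 2 at the 1538 loci missing in MRTFB dN dPY replicate 1, and the prior was 3.44. P values were adjusted over all loci tested by Benjamini and Hochberg, with a threshold of 0.05. A fold change on this scale understates the change of low loci. The labels give the replicate numbers but not what a number shares. Between the MRTFB groups the differences of replicate 1 minus replicate 2 correlated across loci at r = 0.384 to 0.741. The fit was tested on simulated data.

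Lists are described by counts and medians, to be read beside the shares and the median over all loci. Named genes are the factors, the 12 largest changes each way (a value in all 4 libraries, mean of 3 FPKM or more, groups not overlapping), up to 5 passing members of each list, 18 genes fixed by name and the loci whose effects differed. Genes named beyond these were chosen after their values were seen, and some genes of the lists are counted but not reported here. The members and lists were chosen with earlier results of these data known. Relative depth is the most frequent ratio between low values. Alternatives were a pseudocount of 0.1, no filter, median-of-ratios scaling, other sets of libraries, no block, no trend, other treatments of zeros, and leaving out each library. Tables were made with Python 3.11.15, numpy 2.4.6, pandas 2.3.3 and matplotlib 3.10.9.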

Additional observations from a re-analysis of the deposited data

Results flagged for a closer look

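At 3 loci the effect of losing SRF binding was not the same without and with YAP binding, by the interaction test of limma with the replicate block. JAKMIP1 had an effect of -3.53 without YAP binding and of -1.08 with it, a difference of -2.45 ± 0.19 on the log2 scale (adjusted p = 0.034). The adjusted p of this difference ranged from 0.0049 to 0.4 over the alternatives and was 0.072 with no replicate block. SNORD9 had an effect of 7.77 without YAP binding and of 0 with it, a difference of 7.77 ± 0.23 (adjusted p = 9.2e-05), and was listed at 0 in 3 of the 4 vector libraries and at 172 FPKM in Hygro vector replicate 2. MIR4492 had an effect of 13.86 without YAP binding and of 0 with it, a difference of 13.86 ± 0.27 (adjusted p = 1.3e-05), and was above 0 in no other MRTFB or vector library. For SNORD9 and MIR4492 the call was lost in both fits of all 14 libraries, with adjusted p of 0.98 and 1.0 and of 0.75 and 0.81.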

How the results depend on the processing

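The numbers pair the libraries only by label, and the block decides many calls: with no replicate block 1047 loci were higher and 1429 lower, all among the 2317 and 2374 called with it, and the difference between the effects was lower at 0 loci. Fits of all 14 libraries gave 930 higher and 1355 lower loci without a block and 1263 higher with a block within the MRTFB groups, and neither fit found a locus with a higher difference between the effects (0 and 0). Without any 1 of the 4 libraries, where the remaining library of its group is taken to vary as the rest do, there were 1348 to 1587 higher and 1589 to 1883 lower loci, and 3 to 4 higher and 1 to 2 lower differences between the effects. That last count was 0 with a pseudocount of 0.1, with no filter on low values and with the zeros of the empty part kept, and 2 with isolated zeros missing. Median-of-ratios scaling gave 2263 higher and 2433 lower loci and cost none of the 157 named genes that had passed their calls. With no replicate block 30 of these 157 lost the call, and with the 4 compared libraries alone 4 of 137. No named gene changed its direction except 10 on the empty part of MRTFB dN dPY replicate 1 when its zeros were kept as values: CALD1 (1.25), TMSB4X (2.34), GSN (1.17), CAV1 (2.03), CAV2 (1.14), CD24 (3.52), INSIG1 (2.09), NDRG1 (1.56), DNAJB9 (0.81) and TPM2 (1.16), none past the threshold. These zeros enter by construction of that alternative. Without counts, no limit can be set for loci listed at 0.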

Other observations

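Gene families outside the lists were looked at after their values were seen, and are described by counts with no test of the family. Of 12 tested S100 loci, which encode small calcium-binding proteins, 11 were higher in MRTFB dN Y305A/dPY and none was lower, with a median difference of 2.16, where 20.1% of all loci were higher. S100A16 is counted more than once, since its name is held by several loci. The S100A8 call was lost with no replicate block (adjusted p = 0.17 by limma). S100A14 stood at 2130 and 1440 FPKM in MRTFB dN Y305A/dPY, against 102 and 68.8 FPKM in MRTFB dN dPY (4.37 ± 0.15, adjusted p = 1.1e-05 by limma), and S100A11 did not pass (0.30 ± 0.20). All 4 tested metallothionein loci were higher (median 4.15). Of 6 serpin B loci, genes of intracellular protease inhibitors and relatives, 4 were higher and SERPINB5, the gene of maspin, was lower at 153 and 72.9 FPKM in MRTFB dN Y305A/dPY, against 485 and 340 FPKM in MRTFB dN dPY (-1.93 ± 0.19). Of 19 keratin loci 8 were higher and 6 lower, where 20.1% of all loci were higher and 20.6% lower. The higher ones included the hair keratin KRT81, at 10300 and 5400 FPKM in MRTFB dN Y305A/dPY, against 1270 and 498 FPKM in MRTFB dN dPY (3.22 ± 0.23).

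Of the 11517 loci tested, 474 reached 1 FPKM only in MRTFB dN dPY and 324 only in MRTFB dN Y305A/dPY. These counts are not alike on the emptied part of MRTFB dN dPY replicate 1. A locus there that reached 1 FPKM only in MRTFB dN dPY had 1 such library and was not tested. GADD45G was left out in this way, at 0.346 and 0.544 FPKM in MRTFB dN Y305A/dPY, against 33.6 FPKM in MRTFB dN dPY replicate 2. The reverse case was tested there. MMP12, a macrophage elastase, was listed at 0 in both MRTFB dN Y305A/dPY libraries, and stood at 5.91 and 43.9 FPKM in MRTFB dN dPY and at 0 to 0.107 FPKM in the vector libraries.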
